A study of Homo sapiens with 20 samples.

Results

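The genes described here are the ligands of the tumour necrosis factor (TNF) superfamily and their receptors, read in a transformed human mammary epithelial line after siRNA depletion of APC, beta-catenin and TAZ. Members were taken by symbol, as every gene whose symbol starts with TNFSF or TNFRSF together with TNF, LTA, LTB, LTBR, FAS, FASLG, CD27, CD40, CD70, NGFR, EDA, EDAR and EDA2R. The rule found 46 of the 19775 genes measured. Of these, 43 are ligand or receptor genes and 3 are antisense or divergent transcripts that carry a receptor's symbol and are given apart. The 43 fall into 16 ligands, 8 receptors with a death domain, 3 decoy receptors and 16 receptors that bind TRAF adaptors. The genes CD40LG, TNFSF12 and TNFRSF6B were not analysed here.

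Ligands of the TNF superfamily are mostly membrane proteins that work as trimers and can be shed from the cell surface. Among the receptors with a cytoplasmic death domain, FAS and the death receptors of TNFSF10 (TRAIL) can recruit FADD and caspase-8 and start apoptosis. The TRAF-binding receptors recruit TRAF adaptors and feed into NF-kB and JNK signalling. Decoy receptors bind the same ligands and lack a working death domain. In mammary epithelium the family is known best for RANK, the TNFRSF11A product, which drives progenitor growth under progesterone.

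The samples were MCF10-T1k (MII) cells, a RAS-transformed derivative of the MCF10A mammary epithelial line, and every group was transfected with siRNA and kept in the same serum medium with insulin, EGF, hydrocortisone and cholera toxin. The study asked about TAZ, the product of WWTR1 and a co-activator of TEAD transcription factors, as a mediator of Wnt signalling. The 5 groups of 4 arrays each were a control siRNA against GFP (siGFP), siRNA against APC (siAPC), against APC and TAZ (siAPC/siTAZ), against beta-catenin (sibcat) and against beta-catenin and TAZ (sibcat/siTAZ). The APC protein holds together the complex through which beta-catenin is degraded. The design has 1 cell line and no group with TAZ siRNA alone, so an effect of TAZ siRNA can be read only on top of APC or beta-catenin depletion. The labels call the arrays of a group biological replicates A to D without naming separate cultures, so p-values measure the spread between these samples. In bulk RNA, fewer cells with a transcript and less transcript per cell cannot be told apart.

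RNA was read on Affymetrix HG-U133 Plus 2.0 arrays, and each value is a log2 signal on which 1 unit is a doubling. Array medians lay between 5.07 and 5.11, and the number of arrays limits the precision. The targeted transcripts followed the labels: APC fell by 0.88 ± 0.05 with siAPC, CTNNB1 fell by 1.33 ± 0.05 with sibcat, and WWTR1 fell by 2.67 ± 0.05 from siAPC to siAPC/siTAZ and by 2.21 ± 0.05 from sibcat to sibcat/siTAZ. Depletion was not equal across groups, since APC further decreased by 0.46 ± 0.05 between siAPC and siAPC/siTAZ, and CTNNB1 decreased by 1.41 ± 0.05 between sibcat and sibcat/siTAZ. WWTR1 itself was -0.41 with siAPC and -0.43 with sibcat. Of the readouts of the siRNA, AXIN2 had means of 4.79 in siGFP, 10.10 in siAPC, 10.96 in siAPC/siTAZ, 4.29 in sibcat and 4.62 in sibcat/siTAZ. In the same order of groups, CCN1 had 8.705, 12.07, 8.18, 11.65 and 6.71, and CCN2 had 7.76, 11.03, 4.27, 10.56 and 3.21. ANKRD1 had 3.08, 8.73, 3.09, 8.18 and 3.015. CCN1, CCN2 and ANKRD1 were thus above siGFP in both single depletions, although WWTR1 RNA was lower there. All 8 measured epithelial markers, KRT5, KRT14 and CDH1 among them, lay above the array median in every group. Of 10 leukocyte markers 3 did so (CD14, CD79A and CSF1R), with a list median of 4.29 to 4.59 across groups, and 5 of 9 fibroblast and 1 of 8 endothelial markers. CD14 fell by 2.70 ± 0.06 with siAPC (adjusted p = 8.6e-18). Of the fibroblast markers 3 fell with siAPC, and 5 rose and 1 fell when TAZ siRNA was added to it, COL3A1 by 4.78 ± 0.13 and COL1A1 by 2.68 ± 0.06 upward (adjusted p = 1.9e-16 and 2.0e-17). The part of these markers in the results was not tested. The difference between the 3' and 5' control probe sets of ACTB, a sign of RNA quality, had a mean of 1.83 in siGFP, 1.57 in siAPC, 1.99 in siAPC/siTAZ, 1.81 in sibcat and 2.04 in sibcat/siTAZ, and its part in the results was not tested.

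Of the 43 members, 33 had a mean above the median of the arrays in at least 1 group. Members count as called, or changed, where limma's adjusted p was under 0.05, with Benjamini-Hochberg adjustment over all 19775 genes. Changes are log2 differences ± the standard error of that fit, with 4 arrays in each group, and a fold is the same difference on the linear scale. Across 8 comparisons 29 members were called at least once. The other 14 were CD27, CD40, LTA, LTB, TNFRSF10C, TNFRSF14, TNFRSF17, TNFRSF1B, TNFRSF25, TNFRSF4, TNFRSF8, TNFSF11, TNFSF14 and TNFSF8, whose largest difference in any comparison was 0.07 to 0.27 in size. These counts rest on 1 probe set per gene, and with the mean of all probe sets 8 of the 14 were called at least once, at sizes up to 0.41: CD40, TNFRSF10C, TNFRSF25, TNFRSF4, TNFRSF8, TNFSF11, TNFSF14 and TNFSF8.

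Against siGFP, siAPC changed 19 of 43 members (44.2%), 15 upward and 4 downward, where 40.0% of all genes were called, 21.3% higher and 18.7% lower. With sibcat 16 members were called (37.2%), 9 higher and 7 lower, against 37.1% of all genes (21.4% and 15.7%). When TAZ siRNA was added to siAPC the count was 20 (46.5%), 15 higher and 5 lower, against 43.5% of all genes (20.7% and 22.8%). Added to sibcat, it changed 15 (34.9%), 8 higher and 7 lower, against 31.7% of all genes (18.0% and 13.7%). The shares called in either direction are near those of all genes and say little about the family. By direction, members leaned upward more than all genes did with siAPC (15 higher, 4 lower). The same held on adding TAZ siRNA to siAPC (15 higher, 5 lower), and neither lean was tested.

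Changes of at least 2-fold made up a larger share of the members than of all genes, which is given as a description with no test. A call with at least a 2-fold difference was met by 8 of 43 members (18.6%) with siAPC, where 3.58% of all genes met it. The figures were 5 members (11.6%) beside 2.43% with sibcat, 6 (14.0%) beside 4.36% when TAZ siRNA was added to siAPC, and 3 (7.0%) beside 2.31% when it was added to sibcat. The median change of the 43 members was 0.030 with siAPC and -0.020 with sibcat, beside -0.002 and 0.000 for all genes. More than 1 in 2 members were not called (24 with siAPC and 27 with sibcat). The called members were 15 higher and 4 lower with siAPC, and 9 higher and 7 lower with sibcat. The comparisons against siGFP share the siGFP arrays, and siAPC against siGFP shares the siAPC arrays with siAPC/siTAZ against siAPC. In the map of changes by role, death domain receptors carry mostly positive values in the siAPC/siTAZ columns, and the ligands are split.

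**Figure D1:**
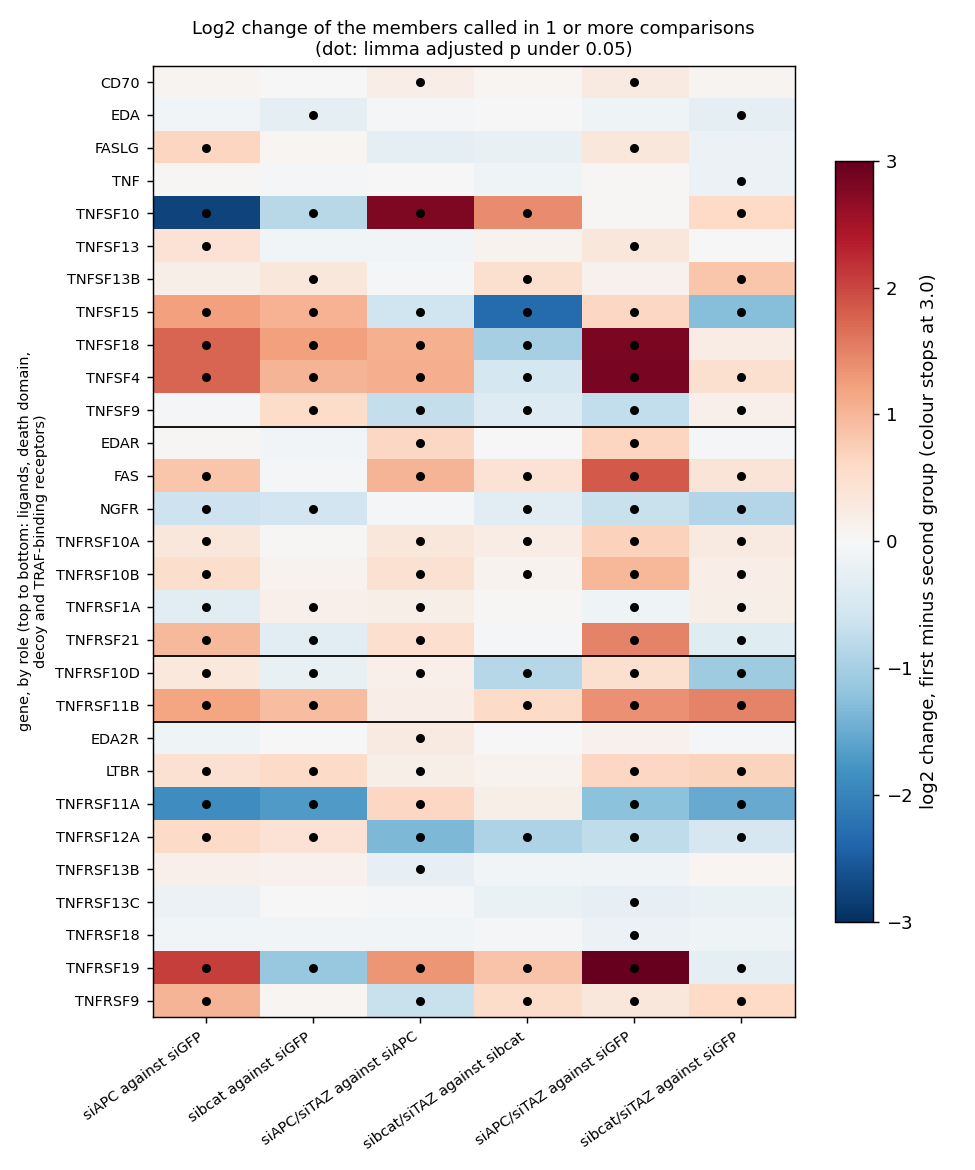
Log2 change (colour) of the 29 members called at least once, in rows by role, for 6 comparisons in columns, where a dot marks a limma adjusted p under 0.05 and colour stops at 3.0. TNFSF10 is -2.78 with siAPC and 2.81 when TAZ siRNA is added to it, whereas TNFRSF19 is positive in all 3 columns with APC siRNA and negative in both columns that set a beta-catenin siRNA group against siGFP.

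Among the ligands, TNFSF10, also called TRAIL, is a death ligand that binds the death receptors TNFRSF10A and TNFRSF10B and the decoys TNFRSF10C, TNFRSF10D and TNFRSF11B. Its signal in siGFP arrays A to D was 8.47, 8.53, 8.46 and 8.40. In siAPC it was 5.79, 5.63, 6.08 and 5.24, in siAPC/siTAZ 8.42, 8.50, 8.59 and 8.46, in sibcat 7.75, 7.69, 7.63 and 7.43 and in sibcat/siTAZ 9.07, 9.06, 8.95 and 9.13. All siAPC arrays lay below every other array, siGFP and siAPC/siTAZ overlapped, and sibcat/siTAZ was above all of them. TNFSF10 fell by 2.78 ± 0.12 with siAPC, a 6.87-fold drop (adjusted p = 1.5e-13), and by 0.84 ± 0.12 with sibcat (adjusted p = 6.9e-06). Adding TAZ siRNA raised it 7-fold over siAPC, by 2.81 ± 0.12 (adjusted p = 1.1e-13). Over sibcat the rise was 2.69-fold, or 1.43 ± 0.12 (adjusted p = 6.1e-09). The siAPC/siTAZ arrays differed from siGFP by 0.03 ± 0.12 (adjusted p = 0.872), and the sibcat/siTAZ arrays were higher than siGFP by 0.59 ± 0.12 (adjusted p = 2.8e-04). The other probe sets of TNFSF10 moved alike. The spread within siAPC was the widest of the 5 groups, with an SD of 0.35 beside 0.05 in siGFP.

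TNFSF15 is a ligand of the death domain receptor TNFRSF25 and is known from endothelial cells and gut inflammation. Its signal was 6.76, 7.03, 6.78 and 6.82 in siGFP, 7.98, 8.18, 8.05 and 8.08 in siAPC and 7.45, 7.47, 7.45 and 7.53 in siAPC/siTAZ. In sibcat it was 8.02, 7.83, 7.93 and 7.75, and in sibcat/siTAZ 5.39, 5.68, 5.45 and 5.79. Both single depletions lay above siGFP and overlapped each other, whereas sibcat/siTAZ lay below every other array. TNFSF15 rose by 1.23 ± 0.08 (adjusted p = 2.0e-10) with siAPC and by 1.03 ± 0.08 (adjusted p = 3.7e-09) with sibcat. Adding TAZ siRNA lowered it in both backgrounds: it fell by 0.60 ± 0.08 (adjusted p = 4.2e-06) on siAPC and by 2.31 ± 0.08, a 4.94-fold drop (adjusted p = 2.0e-14), on sibcat. The combined groups therefore ended on opposite sides of siGFP, at 0.63 ± 0.08 and -1.27 ± 0.08. Its other, dimmer probe set moved less, with 0.26 (adjusted p = 0.0751 over all probe sets) after siAPC and -0.37 (adjusted p = 0.0166) when TAZ siRNA was added to sibcat. That probe set gave 0.015 (adjusted p = 0.936) when TAZ siRNA was added to siAPC. Against siGFP it gave -0.03 (adjusted p = 0.855) in sibcat/siTAZ. The fall on siAPC and the end below siGFP thus rest on the brighter probe set. The receptor TNFRSF25 was called in no comparison, but with the mean of all its probe sets it was lower with siAPC, at -0.14 (adjusted p = 0.0102), and with sibcat, at -0.23 (adjusted p = 2.0e-04).

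The proximal promoters of these ligands, at the transcript starts given by RefSeq, are shown because TAZ acts through TEAD factors, whose short site GGAATG can be looked for in them. Each is the 250 bases before the start, read 5′ to 3′ on the gene's strand in GRCh38.p14, with motif matches in capitals. TNFSF10 lies at chr3:172523431-172523680 on the minus strand, and its capitals mark an interferon response type match (GAAA, any 2 bases, GAAA on either strand, here TTTCAGTTTC) 187 bases before the start, and a TATA box (TATAAA) 31 bases before it. TNFSF15 lies at chr9:114792531-114792780 on the minus strand, and its capitals mark an AP-1 type match (TGANTCA) 120 bases before the start and a TEAD type match, CATTCC on this strand, 80 bases before it.
TNFSF10: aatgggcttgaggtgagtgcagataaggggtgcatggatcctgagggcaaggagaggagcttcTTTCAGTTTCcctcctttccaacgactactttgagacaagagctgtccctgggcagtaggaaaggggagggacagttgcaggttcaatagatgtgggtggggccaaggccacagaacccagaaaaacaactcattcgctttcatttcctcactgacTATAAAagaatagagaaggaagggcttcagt
TNFSF15: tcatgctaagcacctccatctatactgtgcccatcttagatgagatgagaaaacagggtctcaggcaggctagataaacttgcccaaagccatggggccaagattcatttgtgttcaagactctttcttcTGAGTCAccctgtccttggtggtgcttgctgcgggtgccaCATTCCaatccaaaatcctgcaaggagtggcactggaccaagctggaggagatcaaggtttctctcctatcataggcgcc
All motifs were searched on both strands. GGAATG is in 11.9% of the 35116 RefSeq promoters of this length and in 2 of the 38 promoters of the family, TGANTCA in 6.57% and in 7 of 38, the interferon response element in 3.02% and in 5 of 38, and TATAAA in 10.7% and in 6 of 38. The TCF site (CTTTGAT or CTTTGAA) is in 5.94% and in 5 of 38, and the NF-kB site (GGG, any 2 bases, TTTCC) in 1.73% and in 3 of 38. Alternative starts of a gene share bases, so the 38 promoters of 28 members are not independent. A match says only that these letters are in the window.

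**Figure D2:**
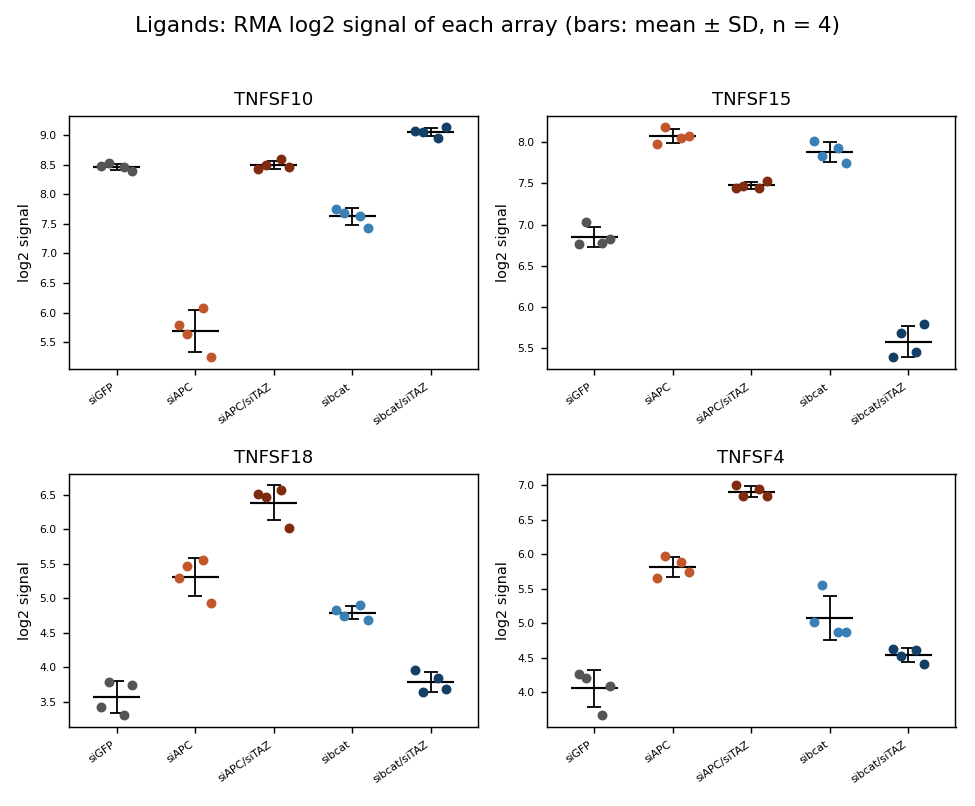
RMA log2 signal (y axis) of each array (points) in the 5 siRNA groups (x axis) for TNFSF10, TNFSF15, TNFSF18 and TNFSF4, with the mean and SD of 4 arrays as lines. TNFSF10 is lowest in siAPC, and TNFSF15 is lowest in sibcat/siTAZ, whereas TNFSF18 and TNFSF4 are highest in siAPC/siTAZ.

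TNFSF18 and TNFSF4 are co-stimulatory ligands of the T cell receptors TNFRSF18 and TNFRSF4. They lie next to each other on chromosome 1 with FASLG on the other side of TNFSF18, in the order of protein-coding genes in RefSeq. TNFSF18 read 3.43, 3.79, 3.31 and 3.74 in siGFP, 5.30, 5.46, 5.56 and 4.93 in siAPC and 6.51, 6.46, 6.56 and 6.01 in siAPC/siTAZ. It read 4.83, 4.74, 4.90 and 4.69 in sibcat and 3.96, 3.64, 3.85 and 3.69 in sibcat/siTAZ. The siAPC/siTAZ arrays lay above all others, and sibcat/siTAZ overlapped siGFP. TNFSF18 rose by 1.75 ± 0.14 (adjusted p = 2.7e-09) with siAPC and by 1.22 ± 0.14 (adjusted p = 5.5e-07) with sibcat. Adding TAZ siRNA raised it further by 1.07 ± 0.14 (adjusted p = 2.0e-06) on siAPC, and lowered it on sibcat, where it fell by 1.00 ± 0.14 (adjusted p = 8.3e-06).

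TNFSF4 followed the same order of groups. Its signal was 4.26, 4.21, 3.67 and 4.09 in siGFP, 5.65, 5.97, 5.88 and 5.74 in siAPC and 7.00, 6.84, 6.94 and 6.84 in siAPC/siTAZ. In sibcat it was 5.02, 5.55, 4.87 and 4.87 and in sibcat/siTAZ 4.63, 4.52, 4.61 and 4.41. The groups did not overlap one another, and every depleted array was above siGFP. TNFSF4 rose by 1.75 ± 0.13 (adjusted p = 1.7e-09) with siAPC and by 1.02 ± 0.13 (adjusted p = 3.9e-06) with sibcat. On siAPC, TAZ siRNA added 1.09 ± 0.13 (adjusted p = 1.0e-06). On sibcat, TNFSF4 fell by 0.54 ± 0.13 (adjusted p = 0.0039). The siGFP means of TNFSF18 and TNFSF4, 3.57 and 4.06, lay below the array median, so no fold over siGFP is given for them. Neither receptor rose with its ligand: TNFRSF4 was called nowhere, and TNFRSF18 was called only in siAPC/siTAZ against siGFP, at -0.17 ± 0.07 (adjusted p = 0.0458), a call lost without siGFP arrays B or C or siAPC/siTAZ arrays B, C or D (adjusted p up to 0.185).

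FASLG, the ligand of FAS, had signals of 3.72, 3.92, 3.69 and 4.04 in siGFP and 4.84, 4.44, 4.43 and 4.20 in siAPC, which did not overlap, and rose by 0.64 ± 0.12 (adjusted p = 2.1e-04). It was 0.05 ± 0.12 with sibcat (adjusted p = 0.791) and -0.30 ± 0.12 on adding TAZ siRNA to siAPC (adjusted p = 0.0509). In siAPC/siTAZ it was higher than siGFP by 0.34 ± 0.12 (adjusted p = 0.0274), a call lost without siGFP arrays A or C or siAPC/siTAZ array C (adjusted p up to 0.0956). The genes that flank this group differed among themselves. SUCO, next to FASLG, was 1.16 ± 0.07 with siAPC (adjusted p = 1.5e-11) and 0.15 ± 0.07 with sibcat (adjusted p = 0.0719). PRDX6, next to TNFSF4, rose by 0.74 ± 0.04 (adjusted p = 1.5e-11) with siAPC and fell by 0.50 ± 0.04 (adjusted p = 4.8e-09) when TAZ siRNA was added. PIGC and SLC9C2, one gene further out, were -0.01 (adjusted p = 0.858) and 0.14 (adjusted p = 0.365) with siAPC.
The promoters of the chromosome 1 group are shown to set the neighbours side by side. FASLG lies at chr1:172658853-172659102 on the plus strand, with capitals at an interferon response type match 72 bases before its start, and TNFSF18 at chr1:173050942-173051191 and TNFSF4 at chr1:173205533-173205782, both on the minus strand and without a match to any of the 6 motifs.
FASLG: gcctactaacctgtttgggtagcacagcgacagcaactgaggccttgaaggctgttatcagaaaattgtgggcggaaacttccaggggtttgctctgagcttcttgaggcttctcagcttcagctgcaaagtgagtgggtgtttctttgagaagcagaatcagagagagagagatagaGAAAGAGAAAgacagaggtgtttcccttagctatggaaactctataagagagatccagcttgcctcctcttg
TNFSF18: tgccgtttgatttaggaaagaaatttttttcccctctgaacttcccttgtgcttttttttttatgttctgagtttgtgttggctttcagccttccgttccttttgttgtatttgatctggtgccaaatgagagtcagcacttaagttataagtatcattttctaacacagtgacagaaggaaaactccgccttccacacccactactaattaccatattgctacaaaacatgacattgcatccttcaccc
TNFSF4: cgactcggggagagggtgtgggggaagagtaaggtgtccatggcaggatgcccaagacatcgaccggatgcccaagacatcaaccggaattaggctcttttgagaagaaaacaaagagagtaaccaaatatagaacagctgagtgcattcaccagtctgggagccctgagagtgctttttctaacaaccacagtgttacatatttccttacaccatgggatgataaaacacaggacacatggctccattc

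Of the remaining ligands, TNFSF9, which binds TNFRSF9 on activated T cells, ranged over 7.60 to 7.73 in siGFP, 7.56 to 7.77 in siAPC, 6.83 to 7.11 in siAPC/siTAZ, 8.14 to 8.31 in sibcat and 7.80 to 7.88 in sibcat/siTAZ. It was highest in sibcat and lowest in siAPC/siTAZ. TNFSF9 rose by 0.55 ± 0.06 (adjusted p = 2.7e-07) with sibcat, was -0.04 ± 0.06 with siAPC (adjusted p = 0.681), and fell on adding TAZ siRNA to either, by 0.71 ± 0.06 (adjusted p = 4.8e-09) on siAPC and by 0.39 ± 0.06 (adjusted p = 2.6e-05) on sibcat. TNFSF13B, a survival factor of B cells, ranged over 5.17 to 5.48 in siGFP and 6.01 to 6.31 in sibcat/siTAZ. It rose by 0.35 ± 0.11 (adjusted p = 0.0123) with sibcat and by a further 0.48 ± 0.11 (adjusted p = 0.00126) with TAZ siRNA. With the mean of its probe sets it was also higher with siAPC, at 0.27 (adjusted p = 0.00238), and lower when TAZ siRNA was added to siAPC, at -0.19 (adjusted p = 0.0236). Its relative TNFSF13 rose with siAPC, by 0.43 ± 0.07 (adjusted p = 8.0e-05), and stayed above siGFP in siAPC/siTAZ, by 0.35 ± 0.07 (adjusted p = 5.7e-04). CD70, the ligand of CD27, was called only in siAPC/siTAZ, at 0.19 ± 0.05 (adjusted p = 0.00684) over siAPC and 0.27 ± 0.05 (adjusted p = 3.0e-04) over siGFP.

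TNF, which names the family, had group means of 3.67 to 3.90, and its highest group mean was below the array median. It was called only in sibcat/siTAZ against siGFP, at -0.19 ± 0.07 (adjusted p = 0.0485), and that call was lost without siGFP arrays B, C or D or sibcat/siTAZ arrays A, C or D (adjusted p up to 0.168). EDA, the ligand of EDAR, was lower than siGFP with sibcat, at -0.28 ± 0.09 (adjusted p = 0.0245), a call lost without siGFP arrays C or D or sibcat arrays B or C (adjusted p up to 0.0959) and with the mean of all its probe sets (-0.07, adjusted p = 0.278). Over all 16 ligands, 6 were called with siAPC (5 higher, 1 lower), 7 with sibcat (5 and 2), 6 when TAZ siRNA was added to siAPC (4 and 2) and 6 when it was added to sibcat (2 and 4). These are 37.5%, 43.8%, 37.5% and 37.5% of the ligands, beside 40.0%, 37.1%, 43.5% and 31.7% of all genes.

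Receptors with a death domain moved mostly upward when TAZ siRNA was added to siAPC: 6 of 8 rose (FAS, TNFRSF10A, TNFRSF10B, TNFRSF21, TNFRSF1A and EDAR) and NGFR and TNFRSF25 were not called, where 20.7% of all genes rose. With siAPC alone 4 rose and 2 fell, and with sibcat 1 rose and 2 fell. The median change of the 8 was 0.406 on adding TAZ siRNA to siAPC, beside -0.025 for all genes. Adding it to sibcat raised 3 and lowered 1. Called in either direction were 75.0% of the class with siAPC, 37.5% with sibcat, and 75.0% and 50% at the TAZ steps, beside 40.0%, 37.1%, 43.5% and 31.7% of all genes. Of 9 fibroblast markers, 5 rose and 1 fell at the TAZ step on siAPC, and 3 rose and 0 fell at that on sibcat. COL3A1 and COL1A1 rose at both steps, on sibcat from 4.55 to 8.16 and from 8.755 to 10.58. A link of these markers to the receptors was not tested.

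FAS, the receptor of FASLG, read 10.02, 10.05, 10.06 and 10.03 in siGFP, 10.90, 10.86, 10.88 and 10.85 in siAPC and 11.93, 11.87, 11.88 and 11.86 in siAPC/siTAZ. It read 10.02, 9.93, 10.03 and 9.98 in sibcat and 10.41, 10.41, 10.41 and 10.43 in sibcat/siTAZ. Each step from siGFP to siAPC to siAPC/siTAZ separated the arrays without overlap, and sibcat overlapped siGFP. FAS rose by 0.83 ± 0.03 (adjusted p = 4.1e-14) with siAPC and was -0.05 ± 0.03 with sibcat (adjusted p = 0.256). Adding TAZ siRNA raised it 2.02-fold on siAPC, by 1.01 ± 0.03 (adjusted p = 2.0e-15), and 1.34-fold on sibcat, by 0.42 ± 0.03 (adjusted p = 1.9e-09). In siAPC/siTAZ it stood 3.59-fold above siGFP. All 5 probe sets of FAS moved alike.

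TNFRSF21, a death domain receptor without an established TNF ligand, had signals of 10.74, 10.92, 10.94 and 10.93 in siGFP, 11.84, 11.90, 11.85 and 11.86 in siAPC and 12.33, 12.44, 12.39 and 12.32 in siAPC/siTAZ. It had 10.56, 10.49, 10.60 and 10.57 in sibcat and 10.58, 10.53, 10.45 and 10.52 in sibcat/siTAZ. Both groups with APC siRNA lay above siGFP and both groups with beta-catenin siRNA lay below it. TNFRSF21 rose by 0.98 ± 0.05 (adjusted p = 1.1e-12) with siAPC and by a further 0.51 ± 0.05 (adjusted p = 1.8e-08) with TAZ siRNA. It fell by 0.33 ± 0.05 (adjusted p = 9.8e-06) with sibcat, where TAZ siRNA gave -0.04 ± 0.05 (adjusted p = 0.651).

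With siAPC the death receptors of TRAIL rose while the ligand fell. TNFRSF10B ranged over 11.04 to 11.15 in siGFP, 11.59 to 11.65 in siAPC, 12.04 to 12.14 in siAPC/siTAZ, 11.13 to 11.23 in sibcat and 11.23 to 11.33 in sibcat/siTAZ. It rose by 0.53 ± 0.04 (adjusted p = 5.8e-10) with siAPC and by 0.46 ± 0.04 (adjusted p = 3.0e-09) more with TAZ siRNA, to 1.98-fold over siGFP. Its dimmer probe sets moved less: both of those above the array median were not called with siAPC, at 0.14 (adjusted p = 0.0742 and 0.0588 over all probe sets), and 1 of them was called with sibcat, at 0.20 (adjusted p = 0.0139). With the mean of all probe sets TNFRSF10B rose by 0.23 with siAPC (adjusted p = 3.3e-05) and by 0.11 with sibcat (adjusted p = 0.026). On sibcat the TAZ step was 0.10 ± 0.04 (adjusted p = 0.0493), a call lost without sibcat arrays C or D or sibcat/siTAZ arrays A, B or D (adjusted p up to 0.144). TNFRSF10A ranged over 9.11 to 9.23 in siGFP, 9.46 to 9.53 in siAPC and 9.78 to 9.89 in siAPC/siTAZ, also without overlap. It rose by 0.35 ± 0.05 (adjusted p = 7.2e-06) with siAPC, by 0.35 ± 0.05 (adjusted p = 5.4e-06) on adding TAZ siRNA to siAPC, and by 0.22 ± 0.05 (adjusted p = 0.00139) on adding it to sibcat.

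TNFRSF1A, the main TNF receptor of non-immune cells, ranged over 9.37 to 9.51 in siGFP, 9.08 to 9.17 in siAPC, 9.24 to 9.34 in siAPC/siTAZ and 9.51 to 9.70 in sibcat. It fell by 0.31 ± 0.05 (adjusted p = 5.2e-05) with siAPC and rose by 0.18 ± 0.05 (adjusted p = 0.00728) when TAZ siRNA was added. Its rise with sibcat, 0.14 ± 0.05 (adjusted p = 0.0327), was lost without siGFP arrays B or D or sibcat arrays A or D (adjusted p up to 0.121). EDAR, the ectodysplasin receptor of skin appendages, was not called in the single depletions, at 0.03 ± 0.08 and -0.09 ± 0.08 (adjusted p = 0.815 and 0.46). In siAPC/siTAZ it ranged over 6.16 to 6.40, above all arrays of the other groups, and rose by 0.61 ± 0.08 (adjusted p = 1.9e-06) over siAPC. NGFR, the low-affinity neurotrophin receptor, fell by 0.62 ± 0.10 (adjusted p = 6.4e-05) with siAPC and by 0.57 ± 0.10 (adjusted p = 1.7e-04) with sibcat. Its group means, 3.17 to 4.06, were all below the array median.

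**Figure D3:**
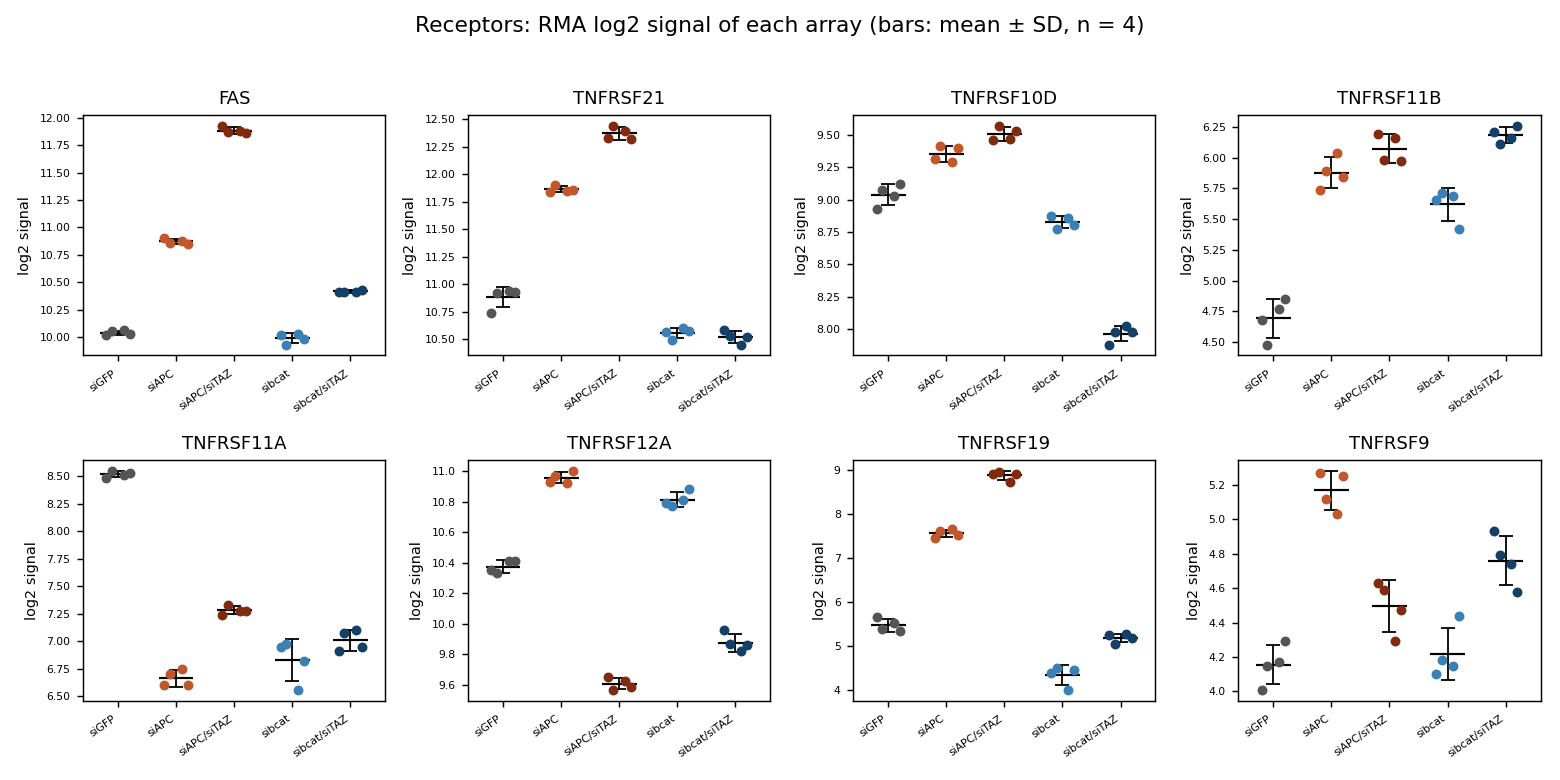
RMA log2 signal (y axis, scaled to each gene) of each array (points) in the 5 siRNA groups (x axis) for the 8 receptors with a called change of at least 0.8 in a single depletion or on adding TAZ siRNA to it, with the mean and SD of 4 arrays as lines. FAS and TNFRSF21 climb from siGFP through siAPC to siAPC/siTAZ, TNFRSF10D drops in sibcat/siTAZ, and TNFRSF11A is below siGFP in all 4 depleted groups.

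Among the decoy receptors, TNFRSF10D, which binds TNFSF10 and has a truncated death domain, separated the 4 depleted groups. Its signal was 8.93, 9.07, 9.03 and 9.12 in siGFP, 9.31, 9.41, 9.29 and 9.40 in siAPC and 9.46, 9.57, 9.47 and 9.53 in siAPC/siTAZ. It was 8.87, 8.77, 8.86 and 8.80 in sibcat and 7.88, 7.98, 8.02 and 7.98 in sibcat/siTAZ. No group overlapped another, and the order ran from siAPC/siTAZ at the top to sibcat/siTAZ at the bottom. It rose by 0.32 ± 0.05 (adjusted p = 1.6e-05) with siAPC and fell by 0.21 ± 0.05 (adjusted p = 0.00114) with sibcat. Adding TAZ siRNA raised it by 0.15 ± 0.05 (adjusted p = 0.0111) on siAPC and lowered it on sibcat, where it fell by 0.86 ± 0.05 (adjusted p = 1.7e-11). With the mean of all its probe sets, its first-step changes were 0.18 (adjusted p = 0.0528) with siAPC and -0.10 (adjusted p = 0.337) with sibcat and were not called.

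TNFRSF11B, or osteoprotegerin, is a secreted decoy of TNFSF11 and TNFSF10. It read 4.68, 4.48, 4.77 and 4.85 in siGFP, 5.74, 5.89, 6.04 and 5.84 in siAPC and 6.19, 5.98, 6.16 and 5.97 in siAPC/siTAZ. It read 5.66, 5.71, 5.69 and 5.42 in sibcat and 6.21, 6.11, 6.16 and 6.26 in sibcat/siTAZ. Every depleted array lay above every siGFP array, and the siGFP mean, 4.695, was below the array median. TNFRSF11B rose by 1.18 ± 0.08 (adjusted p = 4.9e-10) with siAPC and by 0.93 ± 0.08 (adjusted p = 2.5e-08) with sibcat. TAZ siRNA raised it further on sibcat, by 0.56 ± 0.08 (adjusted p = 2.0e-05), and gave 0.20 ± 0.08 on siAPC (adjusted p = 0.0646). The decoy TNFRSF10C was called nowhere, and with the mean of all its probe sets it was -0.13 on adding TAZ siRNA to siAPC (adjusted p = 0.0184).

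Among the TRAF-binding receptors, TNFRSF19 had the largest difference of any member in the 8 comparisons. It is a receptor known from embryonic epithelium and stem cells. Its signal was 5.66, 5.38, 5.51 and 5.33 in siGFP, 7.45, 7.60, 7.65 and 7.52 in siAPC and 8.91, 8.96, 8.73 and 8.91 in siAPC/siTAZ. It was 4.37, 4.49, 4.00 and 4.45 in sibcat and 5.24, 5.05, 5.26 and 5.18 in sibcat/siTAZ. APC siRNA and beta-catenin siRNA moved it in opposite directions from siGFP, with no overlap between groups. TNFRSF19 rose by 2.08 ± 0.09, or 4.24-fold (adjusted p = 4.8e-13), with siAPC and fell by 1.14 ± 0.09 (adjusted p = 6.4e-09) with sibcat, where its signal was below the array median. Adding TAZ siRNA raised it in both backgrounds, by 1.32 ± 0.09 (adjusted p = 3.9e-10) on siAPC and by 0.85 ± 0.09 (adjusted p = 4.4e-07) on sibcat. In siAPC/siTAZ it was 10.6-fold above siGFP. In sibcat/siTAZ it was lower than siGFP, at -0.29 ± 0.09 (adjusted p = 0.0165), a call lost without siGFP array A or sibcat/siTAZ array B (adjusted p up to 0.0701). Its other probe sets, dimmer, gave 0.15 (adjusted p = 0.166 over all probe sets) and 0.37 (adjusted p = 0.00949) with siAPC, and 0.02 (adjusted p = 0.891) and -0.04 (adjusted p = 0.834) with sibcat. Adding TAZ siRNA gave 0.005 (adjusted p = 0.971) and 0.59 (adjusted p = 1.2e-04) on siAPC. On sibcat it gave -0.15 (adjusted p = 0.196) and 0.08 (adjusted p = 0.677). In siAPC/siTAZ against siGFP they gave 0.15 (adjusted p = 0.129) and 0.96 (adjusted p = 2.1e-07), so the 10.6-fold rests on the brightest probe set.

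TNFRSF11A, or RANK, is the receptor of TNFSF11. It had signals of 8.49, 8.55, 8.51 and 8.53 in siGFP, 6.60, 6.70, 6.75 and 6.60 in siAPC and 7.24, 7.33, 7.28 and 7.28 in siAPC/siTAZ. In sibcat it had 6.95, 6.98, 6.56 and 6.82 and in sibcat/siTAZ 6.91, 7.08, 7.10 and 6.95. All 16 depleted arrays lay below all siGFP arrays. TNFRSF11A fell 3.62-fold with siAPC, by 1.86 ± 0.07 (adjusted p = 3.9e-14) on the log2 scale, and 3.23-fold with sibcat, by 1.69 ± 0.07 (adjusted p = 2.7e-13). TAZ siRNA raised it on siAPC, by 0.62 ± 0.07 (adjusted p = 4.0e-07), and gave 0.18 ± 0.07 on sibcat (adjusted p = 0.0582). Its ligand TNFSF11 was called nowhere and had no group mean above the array median. The other, dimmer probe set of TNFSF11 fell by 0.68 with siAPC (adjusted p = 4.0e-06 over all probe sets) and by 0.55 with sibcat (adjusted p = 6.5e-05), and the mean of both was -0.41 with siAPC (adjusted p = 2.1e-06). The decoy of that ligand, TNFRSF11B, rose.

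TNFRSF12A, the growth factor inducible receptor of TNFSF12, turned with TAZ siRNA in both backgrounds. It read 10.35, 10.33, 10.41 and 10.41 in siGFP, 10.93, 10.97, 10.92 and 11.00 in siAPC and 9.65, 9.57, 9.63 and 9.59 in siAPC/siTAZ. It read 10.79, 10.77, 10.81 and 10.88 in sibcat and 9.96, 9.87, 9.82 and 9.86 in sibcat/siTAZ. The single depletions lay above siGFP and both groups with TAZ siRNA lay below it, without overlap. TNFRSF12A rose by 0.58 ± 0.04 (adjusted p = 2.4e-10) with siAPC and by 0.44 ± 0.04 (adjusted p = 2.1e-08) with sibcat. With TAZ siRNA it fell by 1.34 ± 0.04 (adjusted p = 5.8e-16) from siAPC and by 0.94 ± 0.04 (adjusted p = 2.7e-13) from sibcat.

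TNFRSF9 is a co-stimulatory receptor best known from activated T cells. Its signal was 4.01, 4.15, 4.17 and 4.29 in siGFP, 5.27, 5.12, 5.03 and 5.25 in siAPC and 4.63, 4.59, 4.29 and 4.47 in siAPC/siTAZ. It was 4.10, 4.18, 4.15 and 4.44 in sibcat and 4.93, 4.79, 4.74 and 4.58 in sibcat/siTAZ. The siAPC arrays lay above all others, and sibcat overlapped siGFP. Only the siAPC mean, 5.17, was above the array median of 5.09, and the means of the other groups were below it. TNFRSF9 rose by 1.01 ± 0.09 (adjusted p = 1.8e-08) with siAPC. TAZ siRNA then moved it in opposite directions: it fell by 0.67 ± 0.09 (adjusted p = 3.8e-06) on siAPC and rose by 0.54 ± 0.09 (adjusted p = 8.6e-05) on sibcat. The other probe sets of TNFRSF9 gave 0.07 (adjusted p = 0.661 over all probe sets) and 0.36 (adjusted p = 7.4e-04) with siAPC, and they were not called on adding TAZ siRNA to either background.

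LTBR, the lymphotoxin beta receptor, ranged over 8.35 to 8.50 in siGFP, 8.83 to 8.94 in siAPC, 8.96 to 9.10 in siAPC/siTAZ, 8.90 to 9.18 in sibcat and 9.03 to 9.20 in sibcat/siTAZ. Every depleted array lay above siGFP, and LTBR rose by 0.46 ± 0.06 (adjusted p = 1.9e-06) with siAPC and by 0.57 ± 0.06 (adjusted p = 1.3e-07) with sibcat. Its dimmer probe sets did not follow, and with the mean of all its probe sets the changes were 0.09 (adjusted p = 0.214) and 0.11 (adjusted p = 0.108). EDA2R, another receptor for ectodysplasin, was called once, at 0.26 ± 0.08 (adjusted p = 0.00888) on adding TAZ siRNA to siAPC. TNFRSF13B, a receptor of B cells, fell by 0.25 ± 0.10 (adjusted p = 0.0438) there, a call lost without siAPC arrays A, B or D or siAPC/siTAZ arrays A, B or C (adjusted p up to 0.117). TNFRSF13C, the B cell receptor of TNFSF13B, was called once, at -0.24 ± 0.08 (adjusted p = 0.0242) in siAPC/siTAZ against siGFP with arrays that overlapped, and that call was lost without siGFP arrays A or D or siAPC/siTAZ array D (adjusted p up to 0.11). Over the 16 receptors of this class, 5 were called with siAPC (4 higher, 1 lower), 4 with sibcat (2 and 2), 7 when TAZ siRNA was added to siAPC (4 and 3) and 3 when it was added to sibcat (2 and 1). These shares, 31.2%, 25%, 43.8% and 18.8%, stand beside 40.0%, 37.1%, 43.5% and 31.7% of all genes.

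Against siGFP, the combined depletions called 23 members in siAPC/siTAZ (53.5%, 16 higher and 7 lower), where 47.2% of all genes were called (23.0% and 24.3%), and 20 in sibcat/siTAZ (46.5%, 11 higher and 9 lower), where 44.9% were (25.4% and 19.5%). At 2-fold or more, siAPC/siTAZ held 7 members (16.3%, beside 5.60% of all genes): FAS, TNFRSF11A, TNFRSF11B, TNFRSF19, TNFRSF21, TNFSF18 and TNFSF4. In sibcat/siTAZ there were 4 (9.3%, beside 3.67%): TNFRSF10D, TNFRSF11A, TNFRSF11B and TNFSF15. TNFRSF11A was lower and TNFRSF11B higher in both.

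Set directly against each other, siAPC and sibcat differed at 16 members (37.2%), 13 higher and 3 lower in siAPC, where 33.8% of all genes differed (16.3% and 17.5%). The differences of 2-fold or more were 3 members (7.0%, beside 1.67% of all genes). TNFRSF19 was higher in siAPC by 3.23 ± 0.09 (adjusted p = 1.7e-15), and TNFRSF21 2.48-fold higher, by 1.31 ± 0.05 (adjusted p = 4.0e-14). The dimmer probe sets of TNFRSF19 gave 0.13 (adjusted p = 0.267 over all probe sets) and 0.41 (adjusted p = 0.00544). TNFSF10 was 3.84-fold lower in siAPC, at -1.94 ± 0.12 (adjusted p = 7.6e-11). FAS, TNFRSF10A and TNFRSF10B were also higher in siAPC, by 0.88, 0.30 and 0.43 (adjusted p = 5.0e-14, 4.4e-05 and 1.8e-08). For TNFRSF10B the dimmer probe sets above the array median did not differ by the test, at -0.06 and 0.00 (adjusted p = 0.556 and 0.984), and the mean of all its probe sets gave 0.12 (adjusted p = 0.0139). TNFRSF11A and TNFSF15 did not pass, at -0.17 ± 0.07 (adjusted p = 0.0848) and 0.19 ± 0.08 (adjusted p = 0.0849). With the mean of its probe sets TNFRSF11A was lower in siAPC, at -0.29 (adjusted p = 0.0038).

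The step from a single depletion to the same depletion with TAZ siRNA was compared between backgrounds with the interaction term of the model, as the step on siAPC minus the step on sibcat. It differed for 16 of 43 members (37.2%), more positive on siAPC for 11 and more negative for 5, where 27.7% of all genes differed (12.2% and 15.5%), and by 2-fold or more for 6 (14.0%), where 1.69% of all genes did. In 4 of the 16 the step had opposite signs and was called in both backgrounds. TNFSF18 differed by 2.08 ± 0.20 (adjusted p = 9.5e-08), TNFSF4 by 1.63 ± 0.19 (adjusted p = 1.6e-06), TNFRSF10D by 1.02 ± 0.07 (adjusted p = 7.4e-10) and TNFRSF9 by -1.22 ± 0.13 (adjusted p = 4.6e-07). TNFSF10 rose in both and by 1.38 ± 0.16 (adjusted p = 1.9e-06) more on siAPC, and TNFSF15 fell in both and less on siAPC, with a difference of 1.71 ± 0.12 (adjusted p = 1.1e-09). The dimmer probe set of TNFSF15 gave 0.38 (adjusted p = 0.0912 over all probe sets). Those of TNFRSF9 gave -0.045 (adjusted p = 0.884) and -0.15 (adjusted p = 0.381), and that of TNFRSF10D gave 0.72 (adjusted p = 0.00629). The rises of FAS, TNFRSF21, TNFRSF10B and EDAR were larger on siAPC by 0.59, 0.54, 0.36 and 0.59 (adjusted p = 6.1e-09, 2.5e-06, 2.5e-05 and 3.3e-04). All 4 death domain receptors that differed did so in this direction. The plot of the step in each background shows these members with their errors.

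**Figure D4:**
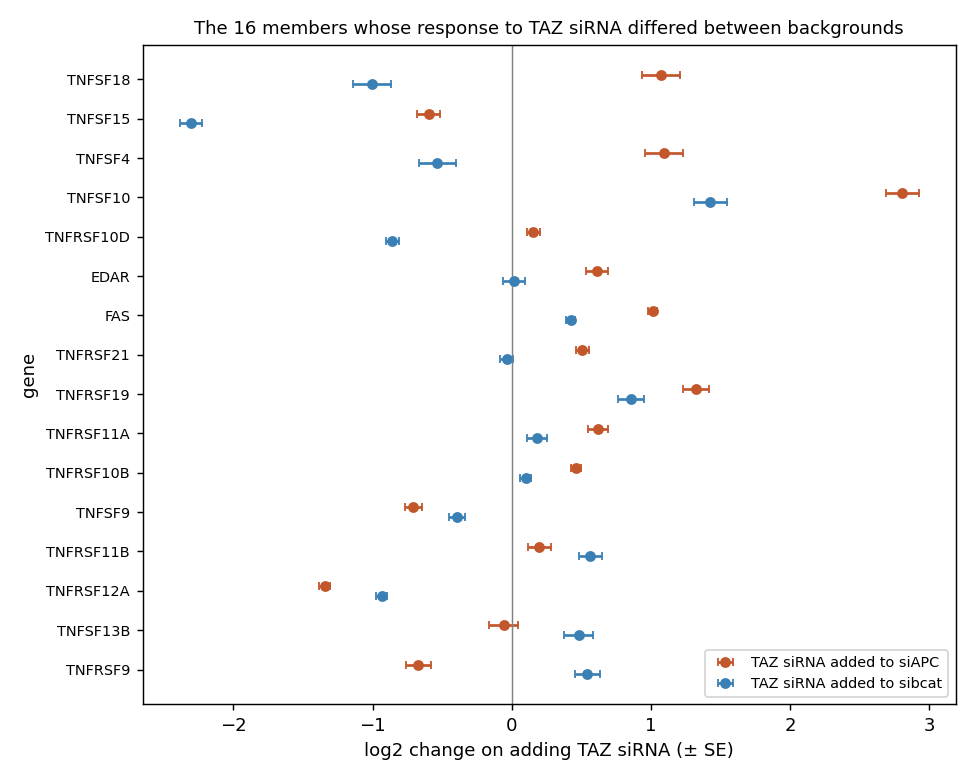
Log2 change on adding TAZ siRNA (x axis, ± SE of the fit) to siAPC (orange) and to sibcat (blue) for the 16 members (y axis) whose change differed between the backgrounds. TNFSF18, TNFSF4, TNFRSF10D and TNFRSF9 lie on opposite sides of zero, and TNFSF10, TNFRSF19, FAS and TNFRSF12A lie on the same side.

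Downstream of the receptors, 8 with siAPC (6 higher, 2 lower), 8 with sibcat (3 and 5), 12 on adding TAZ siRNA to siAPC (9 and 3) and 11 on adding it to sibcat (4 and 7) of 21 adaptors, kinases and ubiquitin ligases were called. In shares these are 38.1%, 38.1%, 57.1% and 52.4%, beside 40.0%, 37.1%, 43.5% and 31.7% of all genes. MAP3K5, the stress kinase ASK that binds TRAF adaptors, fell by 1.68 ± 0.06 (adjusted p = 1.7e-14) with siAPC and by 1.43 ± 0.06 (adjusted p = 3.4e-13) with sibcat, and rose by 1.34 ± 0.06 (adjusted p = 4.2e-13) and 0.47 ± 0.06 (adjusted p = 3.8e-06) when TAZ siRNA was added. TRAF3, which holds back the non-canonical NF-kB pathway, rose by 0.91 ± 0.06 (adjusted p = 8.0e-11) with siAPC and with TAZ siRNA in both backgrounds, by 0.61 and 0.59. Of 6 genes of death signalling, 3 with siAPC (1 higher, 2 lower), 3 with sibcat (1 and 2), 3 on adding TAZ siRNA to siAPC (2 and 1) and 5 on adding it to sibcat (4 and 1) were called, or 50%, 50%, 50% and 83.3%. CFLAR, which blocks caspase-8 at death receptors, fell on adding TAZ siRNA, by 0.71 ± 0.04 (adjusted p = 5.9e-11) on siAPC and by 0.42 ± 0.04 (adjusted p = 2.3e-07) on sibcat. CASP8, the caspase itself, rose at the same steps, by 0.60 ± 0.06 (adjusted p = 1.4e-07) and 0.32 ± 0.06 (adjusted p = 4.8e-04).

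The NF-kB branch was mixed, and its counts are set beside the 40.0%, 37.1%, 43.5% and 31.7% of all genes called at the same 4 steps. Among 8 subunits and kinases, 5 with siAPC (1 higher, 4 lower), 6 with sibcat (1 and 5), 5 on adding TAZ siRNA to siAPC (3 and 2) and 3 on adding it to sibcat (2 and 1) were called (62.5%, 75.0%, 62.5% and 37.5%). REL rose with TAZ siRNA by 0.66 ± 0.05 (adjusted p = 1.0e-09) on siAPC and by 0.53 ± 0.05 (adjusted p = 4.4e-08) on sibcat. Of 9 feedback inhibitors, 5 with siAPC (1 higher, 4 lower), 6 with sibcat (2 and 4), 5 on adding TAZ siRNA to siAPC (4 and 1) and 5 on adding it to sibcat (3 and 2) were called (55.6%, 66.7%, 55.6% and 55.6%). TNFAIP3, a deubiquitinase that shuts off TNF receptor signalling, rose by 0.95 ± 0.05 (adjusted p = 7.7e-12) with siAPC and by 1.09 ± 0.05 (adjusted p = 8.0e-13) more with TAZ siRNA, and NFKBIA, the main cytoplasmic inhibitor, rose by 0.59 and 0.65 at the TAZ steps (adjusted p = 2.5e-08 and 1.4e-08). OTULIN fell by 0.90 ± 0.06 (adjusted p = 6.9e-10) with sibcat. Of 18 NF-kB target genes outside the family, 10 with siAPC (4 higher, 6 lower), 11 with sibcat (3 and 8), 13 on adding TAZ siRNA to siAPC (9 and 4) and 10 on adding it to sibcat (7 and 3) were called (55.6%, 61.1%, 72.2% and 55.6%), in both directions. With siAPC the chemokine CXCL1 rose by 2.54 ± 0.05 (adjusted p = 6.6e-18) while IL1B fell by 1.55 ± 0.04 (adjusted p = 4.2e-16). CXCL2 rose with TAZ siRNA in both backgrounds, by 1.40 and 1.38.

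Of 5 genes that control shedding of ligands and receptors, 2 with siAPC (1 higher, 1 lower), 2 with sibcat (0 and 2), 3 on adding TAZ siRNA to siAPC (3 and 0) and 2 on adding it to sibcat (1 and 1) were called. With 5 genes, these are 40.0%, 40.0%, 60.0% and 40.0%, beside 40.0%, 37.1%, 43.5% and 31.7% of all genes. ADAM17, the protease that releases TNF and several receptors, rose by 0.35 ± 0.04 (adjusted p = 7.4e-07) with siAPC and by 0.39 ± 0.04 (adjusted p = 1.5e-07) more in siAPC/siTAZ. TIMP3, its inhibitor, fell by 1.93 ± 0.05 (adjusted p = 2.6e-17) with siAPC and by 0.62 ± 0.05 (adjusted p = 1.2e-09) with sibcat, and rose by 0.94 ± 0.05 (adjusted p = 1.1e-12) when TAZ siRNA was added to siAPC.

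Of the 3 antisense or divergent transcripts, TNFRSF10A-DT and TNFRSF14-AS1 were called in no comparison. TNFRSF10B-AS1 was higher with siAPC than in siGFP by 0.25 ± 0.10 (adjusted p = 0.0448) and than in sibcat by 0.33 ± 0.10 (adjusted p = 0.0116), with arrays that overlapped in both. Its group means, 3.37 to 3.69, were below the array median.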

How the data were processed

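Total RNA of MCF10-T1k (MII) cells was hybridised to 20 arrays (Affymetrix HG-U133 Plus 2.0), 4 for each of 5 siRNA groups, and groups were taken from the sample titles. The values the authors deposited are log2 signals made with RMA, which corrects background, normalizes arrays by quantiles and summarises probes into probe sets, per the submitters' processing notes. Neither the RMA version nor the genome build of the annotation is given in the sources used here. Of 54675 probe sets, 41097 carry 1 gene symbol, 1801 several and 11777 none, and 62 control probe sets were left out. Symbols were updated through current human gene names for 41037 probe sets. Each gene was represented by its brightest probe set, by the mean of all 20 arrays, and 24 of the 43 members have more than 1. No filter on low signals was applied, and no 2 arrays held identical values.

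With 1 mean per group, a linear model was fitted across 20 arrays and 19775 genes with limma 3.58.1 in R 4.3.3 (15 residual degrees of freedom), with empirical Bayes moderation, two-sided tests and Benjamini-Hochberg adjustment within each comparison. The fit was tested on simulated data. The members, the gene lists, the tests and the rules were chosen with earlier results of these data known. Members were described in full where a change of at least 0.8 was called in a single depletion or on adding TAZ siRNA to it, and of each other list up to 4 called genes with the smallest adjusted p could be named. Promoter sequences come from RefSeq (GRCh38.p14), of which 28 members matched. Alternatives were a fit on the compared groups only, the mean of all probe sets, every probe set tested alone, a mean signal of at least 5, median centring, quantile normalization again, the replicate letter as a block, a trended robust prior, an adjusted p under 0.01, a fold of at least 1.5 and leaving out each array. Counting the antisense and divergent transcripts with the members was added after seeing the data.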

Additional observations from a re-analysis of the deposited data

Results flagged for a closer look

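In 60 groups of 4 arrays, 1 for each fully described member and siRNA group, a lone array stood apart from the other 3 in 2 groups, and chance alone marks about 1 in 20 groups. FAS read 10.43 in sibcat/siTAZ array D and 10.41 in the other arrays of that group. With 3 tied values the rule marks any difference, however small, so the rate of 1 in 20 does not hold there. TNFRSF21 read 10.74 in siGFP array A, where the other arrays read 10.92 to 10.94.

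The change on adding TAZ siRNA differed between the siAPC and sibcat backgrounds for 16 members by the interaction term of the limma model, 11 of them more positive on siAPC and 5 more negative. The log2 differences, siAPC minus sibcat background, were 2.08 for TNFSF18, 1.71 for TNFSF15, 1.63 for TNFSF4, 1.38 for TNFSF10 and 1.02 for TNFRSF10D. They were 0.59 for EDAR, 0.59 for FAS, 0.54 for TNFRSF21, 0.47 for TNFRSF19, 0.44 for TNFRSF11A and 0.36 for TNFRSF10B. The negative differences were -1.22 for TNFRSF9, -0.54 for TNFSF13B, -0.41 for TNFRSF12A, -0.37 for TNFRSF11B and -0.31 for TNFSF9. Depletion differed between the backgrounds at the same step, with an interaction of -0.45 for WWTR1, -0.67 for APC and 1.69 for CTNNB1, and its part in these differences was not tested. The difference for TNFRSF11B lost its call without siAPC array C, siAPC/siTAZ arrays B or D, sibcat array D or sibcat/siTAZ array D (adjusted p up to 0.0572), and that for TNFRSF11A with the mean of all its probe sets (0.28, adjusted p = 0.0509).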

How the results depend on the processing

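The counts of called members stayed within 1.5 times of those reported under every alternative except a fold of at least 1.5, which asks for larger changes by construction. Under that fold the counts were 12 with siAPC, 7 with sibcat, 11 for siAPC/siTAZ against siAPC, 6 for sibcat/siTAZ against sibcat, 15 for siAPC/siTAZ and 9 for sibcat/siTAZ against siGFP, 7 for siAPC against sibcat and 8 for the interaction. With the mean of all probe sets the direction turned for LTBR in siAPC/siTAZ against siAPC (-0.038, adjusted p = 0.599) and for TNFRSF10C in siAPC/siTAZ against siGFP (-0.115, adjusted p = 0.0296), where, of 344 values, 13 lost a call and 22 gained one, these included, and the cause was not tested. Leaving out 1 array gave 19 to 20 called members with siAPC and 14 to 17 with sibcat, turned no direction of a called value, and ended 16 of 145 calls with at least 1 array, all with a change under 0.4 in size. Residuals of arrays with the same replicate letter correlated at -0.088 to 0.156, with a median of 0.027, and 7 of 20 arrays matched their own letter best in another group. Whether the letters mark pairs was not tested. With the letter as a replicate block, 19 members were called with siAPC, 17 with sibcat, and 19 and 14 when TAZ siRNA was added. The filter on a mean signal of at least 5 left 248 of 344 values. Signals near or below the array median limit what can be said of small changes. Examples are TNF, NGFR, FASLG and TNFRSF9, and, in siGFP, TNFSF18, TNFSF4 and TNFRSF11B.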
